A study of Mus musculus with 3 samples.

Results

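Coagulation and fibrinolysis are controlled on the vessel wall, and 9 genes of this system were followed in the cells of the pressure-overloaded mouse heart. They were chosen by name, with earlier results of these data known, and all 9 were found among the 27998 genes counted. They comprise the anticoagulants *Thbd*, *Procr* and *Tfpi*, the initiator of coagulation *F3* and the plasminogen activators *Plat* and *Plau*. The others are the urokinase receptor *Plaur*, the protease inhibitor *Serpine2* and the adhesive protein *Vwf*. Non-cardiomyocytes (non-CMs) were dissociated from the ventricles of wild-type mice, which the study's methods describe as male C57BL/6J JCL mice operated at 8 weeks of age. Transverse aortic constriction (TAC), a ligature around the aortic arch that loads the left ventricle with pressure, was the only treatment, and the labels name no other allele or agent. The healthy phase (the control, TAC 0 weeks), the adaptive hypertrophy phase (TAC 2 weeks) and the heart failure phase (TAC 12 weeks) were each measured as 1 droplet library, and how many hearts a library held is not given in the sources used here. Phase and library therefore cannot be told apart, and no test between phases was possible. With surgery at 8 weeks of age, age at sampling rises with the weeks of TAC, and the labels do not give it. No sham-operated library of matched time was measured, so pressure load, surgery and age cannot be told apart either.

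Coagulation starts when tissue factor, encoded by *F3*, meets blood, and ends in thrombin and fibrin. The endothelium restrains it: TFPI blocks the tissue factor complex, thrombomodulin (*Thbd*) turns thrombin into an activator of protein C, and the endothelial protein C receptor (*Procr*) presents protein C to it. Fibrin is removed by plasmin, which tissue-type (*Plat*) and urokinase-type (*Plau*) plasminogen activators release from plasminogen, the latter often bound to its receptor (*Plaur*). Protease nexin 1 (*Serpine2*) inhibits thrombin and both activators, and von Willebrand factor (*Vwf*), made by endothelial cells (ECs) and megakaryocytes, holds platelets to injured walls.

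A minimum of 200 genes left 3892, 2231 and 792 cells in the libraries, with median depths of 2589, 1495 and 1434 unique molecular identifiers (UMIs) per cell. Each cell was placed in the class whose marker genes gave at least 60% of its marker UMIs. This gave 1152, 1798 and 311 ECs, 1239, 99 and 194 fibroblasts (FBs), 411, 70 and 39 mural cells and 963, 193 and 182 blood cells in the healthy, 2-week and 12-week libraries. The classes carried their own markers: the median healthy EC had 19 UMIs of EC markers and 0 of FB, mural or blood markers. Mural cells were an exception, since their EC markers summed to 2660 CPM (UMIs out of every 1000000 counted in the group) in the healthy library, against 8039 CPM in ECs and 270 CPM in FBs. The part of these EC transcripts in the mural levels of *Thbd* and *Vwf* was not tested. Levels below are in CPM, with the cells of a class or cluster pooled. The 95% interval in parentheses covers counting error only and not the variation between hearts.

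**Figure D1:**
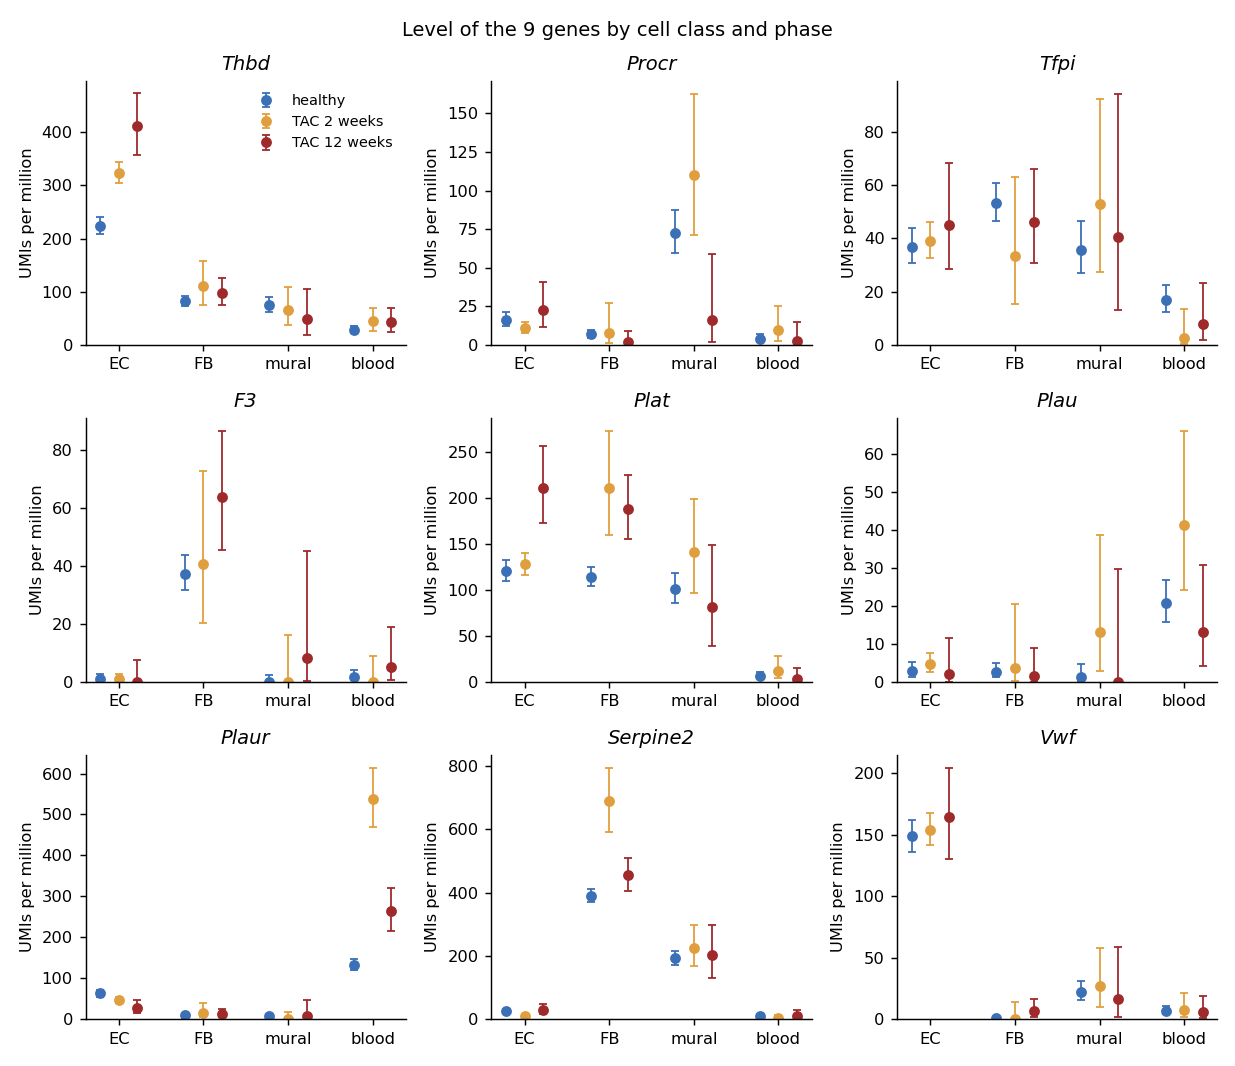
Levels of the 9 genes (CPM, linear axis from 0) in ECs, FBs, mural cells and blood cells. Points are the 3 libraries, 1 per phase, and bars are exact Poisson 95% intervals. In the healthy library, Thbd and Vwf were highest in ECs, Procr in mural cells, F3 and Serpine2 in FBs, and Plau and Plaur in blood cells.

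*Thbd* (ENSMUSG00000074743, chromosome 2 from 148404466 to 148408188 of GRCm38, minus strand) was highest in ECs in every library and was higher there after TAC. Its EC level was 224 CPM (209 to 241) in the healthy library, 324 CPM (305 to 344) at 2 weeks and 413 CPM (358 to 474) at 12 weeks. The 3 intervals did not overlap, with ratios to healthy of 1.44 (1.32 to 1.58) at 2 weeks and 1.84 (1.57 to 2.15) at 12 weeks. FBs held 82.1, 111 and 97.1 CPM in the same order, mural cells 74.3, 66.2 and 48.6 CPM and blood cells 27.9, 43.8 and 42.1 CPM, and in each of these classes the intervals of both ratios included 1. Among FB clusters, 178 cells led by the mesothelial genes *Msln* and *Upk3b* held the most, 165 CPM (135 to 200) over the 3 libraries. The cluster led by *Wif1* and *Chad* held the least, 13.1 CPM (5.66 to 25.8). In the healthy library the EC level was 2.73 times (2.40 to 3.12) that of FBs and 8.03 times (6.36 to 10.3) that of blood cells, while FBs and mural cells were not separated. Of healthy ECs 39.0% had a *Thbd* UMI, against 5.50% of healthy blood cells, whose median depth (2615 UMIs) was above that of the ECs (2224.5 UMIs). After thinning to 1000 UMIs per cell, the share of ECs was 19.7%, 25.7% and 25.9% in the healthy, 2-week and 12-week libraries, with 0, 484 and 110 shallower ECs left out.

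*Procr* (ENSMUSG00000027611, chromosome 2 from 155751117 to 155755471, plus strand) was highest in mural cells rather than in ECs in the healthy library. Healthy mural cells held 72.3 CPM (59.4 to 87.2), which was 4.45 times (3.19 to 6.25) the 16.3 CPM of ECs and 10.9 times (7.12 to 17.3) the 6.62 CPM of FBs. It was present on both sides of the mural class, at 68.7 CPM (53.7 to 86.7) in the cells with more smooth muscle markers and 78.8 CPM (55.5 to 109) in those with more pericyte markers. Mural cells held 110 CPM (71.4 to 163) at 2 weeks and 16.2 CPM (1.96 to 58.5) at 12 weeks. The 12-week value rests on 2 UMIs in 39 cells, and its ratio to healthy was 0.224 (0.0268 to 0.829).

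*Tfpi* (ENSMUSG00000027082, chromosome 2 from 84432855 to 84476775, minus strand) was spread over FBs, ECs and mural cells. Its healthy level was 53.4 CPM (46.6 to 61.0) in FBs, 36.9 CPM (30.7 to 43.9) in ECs, 35.8 CPM (26.9 to 46.7) in mural cells and 16.8 CPM (12.4 to 22.4) in blood cells. FBs stood 1.45 times (1.16 to 1.82) above ECs, and ECs and mural cells were not separated. In ECs it was 39.1 CPM at 2 weeks and 45.2 CPM at 12 weeks, and in FBs 33.3 CPM and 46.2 CPM, and all of these ratios to healthy had intervals that included 1. In blood cells it was 2.43 CPM at 2 weeks, from 1 UMI against 47 in the healthy library, a ratio of 0.145 (0.00358 to 0.846).

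*F3* (ENSMUSG00000028128, chromosome 3 from 121723537 to 121735048, plus strand) was found in FBs and hardly in ECs or mural cells. FBs held 37.3 CPM (31.6 to 43.7) in the healthy library, 40.7 CPM (20.3 to 72.9) at 2 weeks and 63.7 CPM (45.5 to 86.7) at 12 weeks, the last being 1.71 times (1.17 to 2.43) the healthy level. ECs held 3 UMIs of *F3* in the healthy library, 3 at 2 weeks and 0 at 12 weeks, which is below the limit of 6.16 CPM that 3 UMIs would give there. Healthy FBs were 42.8 times (14.4 to 210) above ECs, and mural cells, with 0 UMIs, were at least 18.7-fold lower than FBs by the same limit. The highest levels stood outside the 4 classes, in 46 cells gated by the neural markers, which included *Sox10* and *Kcna1*. These neural cells held 292 CPM (163 to 482) of *F3* in the healthy library, 174 CPM (35.8 to 507) at 2 weeks and 488 CPM (196 to 1006) at 12 weeks, from 27, 10 and 9 cells, so that the 3 intervals overlapped. FB markers summed to 2142, 1388 and 976 CPM in these neural cells, against 12369 CPM in healthy FBs and 270 CPM in healthy ECs, and their part in the neural *F3* level was not tested.

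Among FBs, which were clustered again without the members and the related genes, *F3* was unevenly distributed. The cluster led by *Inmt*, *Gdf10* and *Apod* held 80.05 CPM (61.2 to 103) over the 3 libraries and the cluster led by *Atp6v0a4*, *Cst6* and *Dio2*, which also had *Postn* and *Cilp* among its leading genes, held 14.5 CPM (8.74 to 22.7). The *Cxcl14* and *Hsd11b1* cluster held 36.3 CPM in 329 healthy cells and 139 CPM in 36 cells at 12 weeks, a ratio of 3.84 (1.87 to 7.42). Of the FB clusters with at least 20 cells in both libraries, it was the one in which the interval of the *F3* ratio left 1.

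The *F3* and *Plaur* promoters are shown because both genes stood higher after TAC, in FBs at 12 weeks and in blood cells at 2 and 12 weeks, and because both hold the letters TGANTCA, bound by the AP-1 factors of the Fos and Jun families. RefSeq promoter sequences were at hand for 5 of the 9 members (*Serpine2*, *Tfpi*, *Procr*, *F3* and *Plaur*) and not for *Thbd*, *Plat*, *Plau* and *Vwf*. Of 32851 promoters of this kind, 2217 (6.75%) held TGANTCA in the 250 bases before the start, a pattern that reads the same on both strands when N is complemented. Matches are in capitals below, 5′ to 3′ on the strand of the gene (GRCm38.p6).
F3, chr3:121723287-121723536, plus strand: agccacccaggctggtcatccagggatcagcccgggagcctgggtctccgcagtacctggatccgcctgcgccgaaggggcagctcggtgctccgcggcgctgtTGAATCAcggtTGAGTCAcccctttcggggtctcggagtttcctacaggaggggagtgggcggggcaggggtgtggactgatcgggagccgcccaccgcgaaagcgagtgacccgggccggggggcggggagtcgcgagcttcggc
Plaur, chr7:24462233-24462482, plus strand: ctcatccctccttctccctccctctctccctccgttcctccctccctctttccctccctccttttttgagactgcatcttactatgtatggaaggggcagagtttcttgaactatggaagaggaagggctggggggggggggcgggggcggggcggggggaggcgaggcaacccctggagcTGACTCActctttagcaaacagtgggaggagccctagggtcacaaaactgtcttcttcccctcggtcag
The *F3* promoter held 2 matches, starting 146 and 135 bases before the start, and the *Plaur* promoter held 1, starting 69 bases before it. *Procr* also held 1 match, and its ratio to healthy was 0.224 in mural cells at 12 weeks. *Serpine2* and *Tfpi* held 0, though *Serpine2* stood higher in FBs at 2 and 12 weeks, with ratios of 1.76 and 1.17. *Plaur* itself stood lower in ECs, with ratios of 0.742 and 0.430. These matches are a description of the letters and were not tied to any level. Immediate-early genes of the Fos and Jun families and other dissociation-stress genes, 12 in all, summed to 16659, 14382 and 18764 CPM in FBs and to 12255, 10604 and 8964 CPM in blood cells in the healthy, 2-week and 12-week libraries, and their part in the *F3* and *Plaur* values was not tested.

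*Plat* (ENSMUSG00000031538, chromosome 8 from 22757727 to 22782844, plus strand) was shared by ECs, FBs and mural cells and nearly missing from blood cells. Healthy ECs held 121 CPM (109 to 133), FBs 114 CPM (104 to 125) and mural cells 101 CPM (85.4 to 118), none of which was separated from its neighbor, against 6.81 CPM (4.10 to 10.6) in blood cells. In ECs the level was 128 CPM (116 to 141) at 2 weeks and 212 CPM (173 to 257) at 12 weeks, with ratios to healthy of 1.06 (0.925 to 1.21) and 1.75 (1.40 to 2.18). In FBs it was already higher at 2 weeks, at 211 CPM (160 to 273), and was 188 CPM (155 to 225) at 12 weeks, with ratios of 1.84 (1.38 to 2.43) and 1.64 (1.33 to 2.01). Mural cells held 141 CPM and 81.0 CPM after TAC, with both intervals of the ratio including 1. Mural cells with more smooth muscle markers held 77.5, 151 and 81.2 CPM in the 3 libraries, a 2-week ratio of 1.95 (1.203 to 3.07), and those with more pericyte markers held 151, 110 and 80.2 CPM, a 2-week ratio of 0.727 (0.258 to 1.66). Within FBs, the *Cxcl14* and *Hsd11b1* cluster held 91.8 CPM in the healthy library and 236 CPM at 12 weeks, a ratio of 2.57 (1.54 to 4.13), and the *Atp6v0a4* and *Cst6* cluster held 117, 223 and 223 CPM in the 3 libraries.

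*Plau* (ENSMUSG00000021822, chromosome 14 from 20836660 to 20843385, plus strand) was scarce and largely a blood-cell gene. Blood cells held 20.8 CPM (15.8 to 26.9) in the healthy library, 41.4 CPM (24.1 to 66.3) at 2 weeks and 13.2 CPM (4.28 to 30.7) at 12 weeks, from 58, 17 and 5 UMIs. The healthy blood level was 7.16 times (3.63 to 15.7) that of ECs, which held 10 UMIs. Within blood cells it lay in the cluster led by *Dct* and *Mmp13* (30.7 CPM, 570 cells), in the cluster led by *Lyve1*, *Ccl8* and *Folr2* (22.3 CPM, 378 cells) and in 29 cells led by the proliferation genes *Mki67* and *Ube2c* (92.8 CPM). The *Mki67* value came from 10 UMIs, all in the healthy library, of which 8 lay in 3 cells. *Plau* was at 0 UMIs in the clusters led by *Cd79a*, *Plac8*, *Ccl5* and *S100a8*. The limits that 3 UMIs would give there were 16.2, 13.3, 34.7 and 80.8 CPM. In the *Ccl5* and *S100a8* clusters a level like that of the *Dct* or *Lyve1* cluster could therefore have been missed.

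*Plaur* (ENSMUSG00000046223, chromosome 7 from 24462484 to 24475968, plus strand) went in opposite directions in blood cells and ECs. Blood cells held 133 CPM (120 to 147) in the healthy library, 538 CPM (469 to 614) at 2 weeks and 263 CPM (214 to 320) at 12 weeks. These intervals did not overlap, and the ratios to healthy were 4.05 (3.41 to 4.79) and 1.98 (1.57 to 2.48). ECs held 62.1 CPM (54.1 to 71.0), 46.1 CPM (39.2 to 53.8) and 26.7 CPM (14.2 to 45.7), with ratios of 0.742 (0.600 to 0.915) and 0.430 (0.225 to 0.751). FBs, at 8.82 to 14.8 CPM, and mural cells, at 0 to 8.10 CPM, stayed low in all libraries. A *Plaur* UMI was found in 22.5% of healthy blood cells, 44.0% at 2 weeks and 21.4% at 12 weeks, and in 10.6%, 35.2% and 18.4% after thinning to 1000 UMIs, with 0, 48 and 68 shallower cells left out. In healthy mural cells, where it was lowest, the share was 2.43%.

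The blood class changed its composition between the libraries, and *Plaur* differed widely among its clusters. The highest levels were 1077 CPM (769 to 1466) in 22 cells led by the granulocyte genes *S100a8*, *S100a9* and *Ngp* and 919 CPM (798 to 1054) in 88 cells led by *Plac8*, *Ly6c2* and *Itgal*. The large *Dct* and *Mmp13* and *Lyve1* and *Ccl8* clusters held 148 CPM and 80.01 CPM. The *Plac8* cluster had 33 of 963 blood cells in the healthy library, 45 of 193 at 2 weeks and 10 of 182 at 12 weeks, and the *S100a8* cluster had 3, 6 and 13 cells. With the clusters weighted as in the healthy library, the blood ratio to healthy was 2.17 at 2 weeks and 1.32 at 12 weeks. Within clusters, *Plaur* at 2 weeks was 3.17 times (2.28 to 4.35) the healthy level in the *Dct* cluster, 1.96 times (1.39 to 2.78) in the *Plac8* cluster, 1.78 times (1.16 to 2.70) in the *Cd209a* cluster and 1.04 times (0.329 to 2.53) in the *Lyve1* cluster. The 2-week library thus had both a larger share of *Plac8* cluster cells and higher levels inside 3 of the 4 clusters that had at least 20 cells in both libraries.

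**Figure D2:**
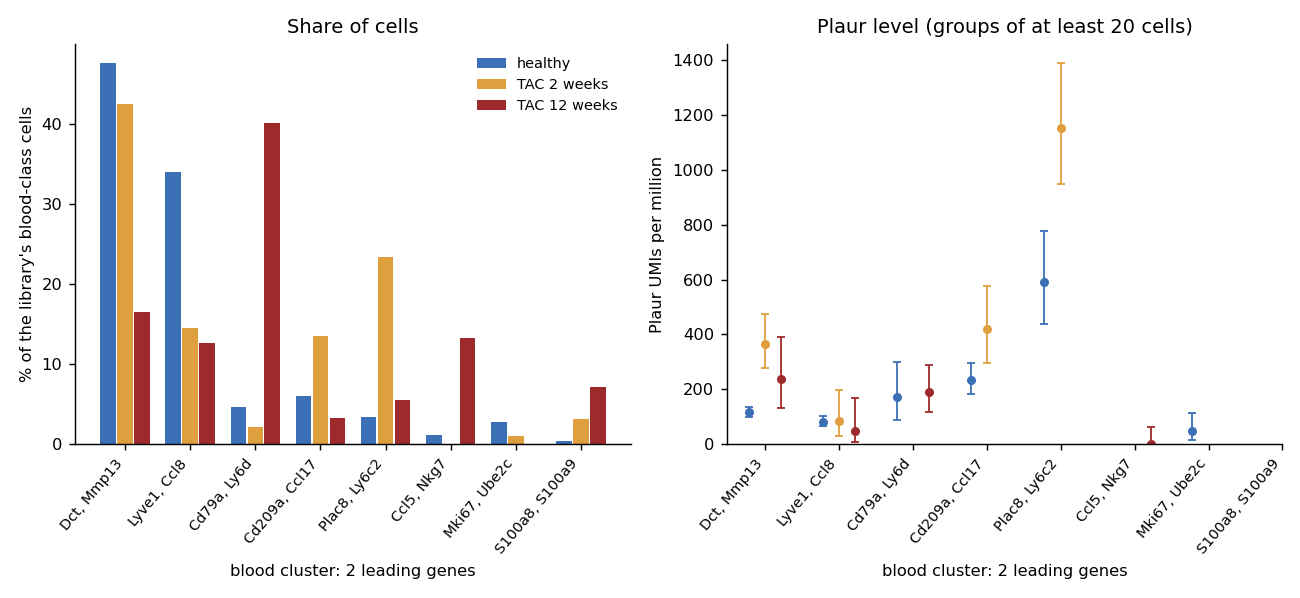
Left, share of the blood-class cells of each library (%) in 8 clusters, named by their first leading genes. Right, Plaur level (CPM, linear axis from 0, exact Poisson 95% intervals) in the same clusters where a library had at least 20 cells. The Plac8 and Ly6c2 cluster took 45 of 193 blood cells at 2 weeks and had the highest Plaur level among the groups plotted.

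*Serpine2* (ENSMUSG00000026249, chromosome 1 from 79794197 to 79861180, minus strand) was a gene of FBs and mural cells. FBs held 390 CPM (371 to 410) in the healthy library, 689 CPM (593 to 795) at 2 weeks and 455 CPM (404 to 511) at 12 weeks, so that it was highest at 2 weeks, with ratios to healthy of 1.76 (1.51 to 2.06) and 1.17 (1.02 to 1.32). The median mitochondrial share of FBs was also highest at 2 weeks (2.60%, 7.59% and 4.74% in the 3 libraries), as was the sum of their FB markers (12369, 20836 and 11671 CPM), and the part of these in the FB values of *Serpine2*, *Plat* and *F2r* was not tested. Mural cells held 192, 225 and 203 CPM, with overlapping intervals, and the healthy FB level was 2.04 times (1.79 to 2.32) theirs. ECs held 26.1 CPM (21.0 to 32.1) in the healthy library, 8.16 CPM (5.43 to 11.8) at 2 weeks and 28.8 CPM (15.7 to 48.3) at 12 weeks. The 2-week level was lower than both others, with a ratio of 0.312 (0.197 to 0.482) to healthy. Markers of FBs, in which *Serpine2* was highest, summed to 270, 101 and 267 CPM in ECs in the same 3 libraries, and their part in the EC value was not tested. Lymphatic-like and endocardial-like ECs (clusters of ECs named by their markers) held 37.1% and 12.9% of the *Serpine2* UMIs of ECs and made up 31 and 54 of 1152 ECs in the healthy library but 11 and 11 of 1798 at 2 weeks, and the part of this difference in the EC ratio was not tested. By EC cluster *Serpine2* was below healthy at 2 weeks in 6 of the 8 clusters with at least 20 cells in both libraries, neither of these 2 among them, and 2 intervals left 1. These 6 ratios rest on 1 to 15 UMIs each over both libraries, and the 2 intervals that left 1 rest on 8 and 4 UMIs. Neural cells held 370, 925 and 418 CPM, from 19, 16 and 6 UMIs.

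Among FB clusters *Serpine2* ranged from 205 CPM (170 to 244) in the cluster led by *Wif1* and *Chad* to 530 CPM (459 to 609) in a cluster whose leading genes included mitochondrial transcripts. The *Wif1* cluster held 145 CPM in 129 healthy cells and 414 CPM in 31 cells at 12 weeks, a ratio of 2.86 (1.97 to 4.16), and 30 of the 58 UMIs at 12 weeks came from 3 cells. The *Inmt* and *Gdf10* cluster held 273 and 268 CPM, a ratio of 0.983 (0.654 to 1.44). At 2 weeks the *Atp6v0a4* cluster was the only FB cluster with at least 20 cells, and its ratio to healthy was 1.79 (1.40 to 2.25).

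*Vwf* (ENSMUSG00000001930, chromosome 6 from 125546774 to 125686679, plus strand) was found largely in ECs, and its level in the whole EC class differed between the 3 libraries by less than counting error. ECs held 149 CPM (136 to 162), 154 CPM (141 to 168) and 164 CPM (130 to 205), with ratios to healthy of 1.04 (0.917 to 1.17) and 1.11 (0.862 to 1.40). Healthy mural cells held 21.9 CPM, blood cells 6.45 CPM and FBs 0.490 CPM, and the FB value rests on 2 UMIs. It was carried by few ECs, since 11.9% of healthy ECs had a *Vwf* UMI, against 0.161% of healthy FBs, whose median depth was 2972 UMIs. Platelet genes (6 in all, among them *Pf4*, *Itga2b* and *Gp9*) summed to 45.6 CPM in healthy ECs, 35.0 CPM at 2 weeks and 283 CPM at 12 weeks, and their part in the 12-week *Vwf* value was not tested. Their sums were 33.3, 25.9 and 213 CPM in FBs and 26.5, 17.7 and 219 CPM in mural cells, so this was not particular to ECs. Blood cells held 3144, 621 and 1293 CPM, and *Pf4* gave 8739 of the 8775 UMIs in the healthy library.

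**Figure D3:**
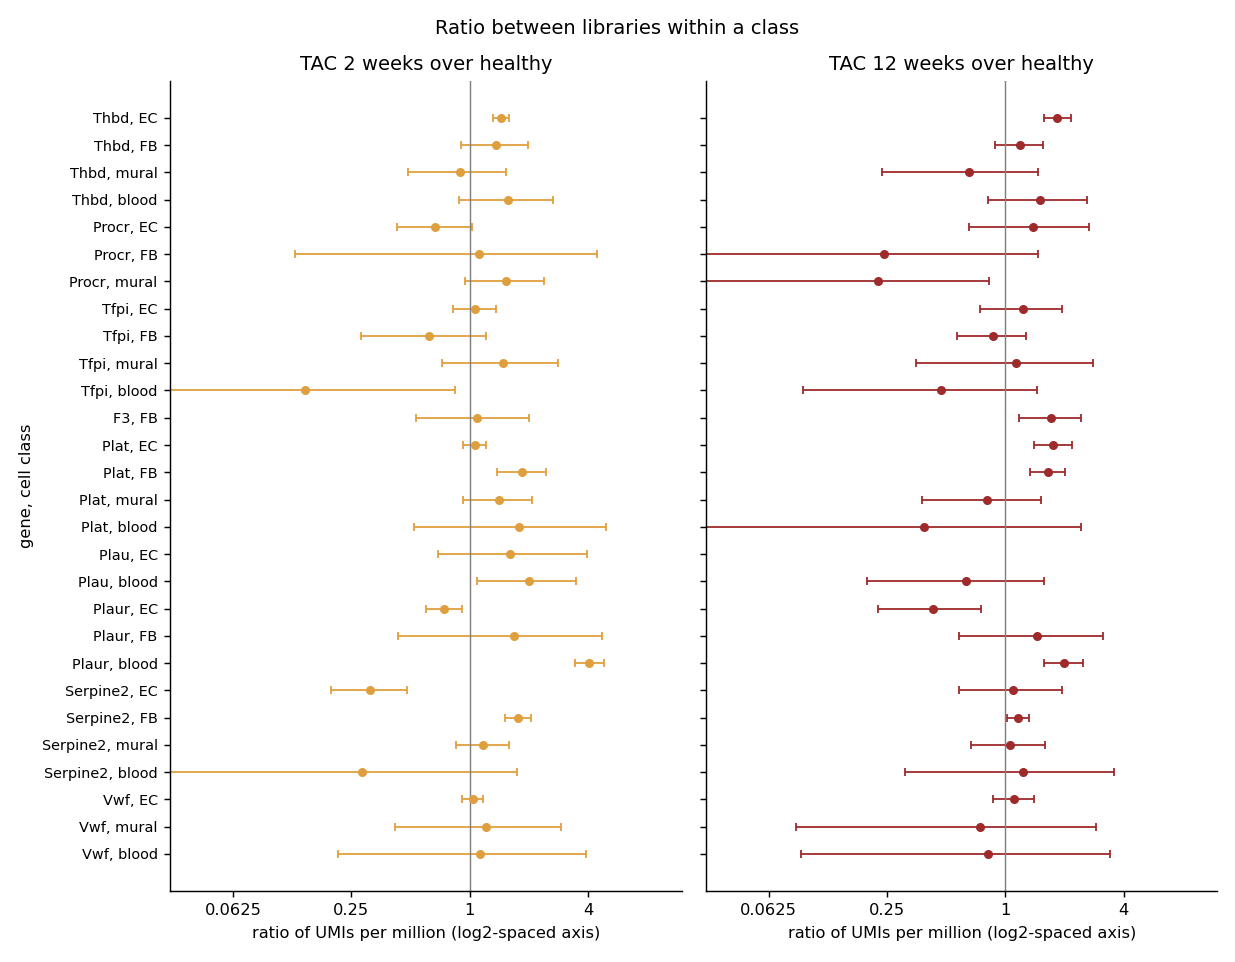
Ratio of the TAC 2-week (left) and TAC 12-week (right) level to the healthy level within a class, on a log2-spaced axis, for genes with at least 20 UMIs over both libraries. Points are single-library ratios and bars are conditional binomial 95% intervals, some cut by the axis. Plaur in blood cells at 2 weeks lay farthest above 1 with an interval clear of it, at 4.05.

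The counts of members past 1.5-fold are given beside the share of all genes tested, and with 6 to 8 members a class each of them moves the share widely. The members, and the other gene lists below, were chosen with earlier results of these data known, so such counts are a description only. In ECs, 1 of 8 members with at least 20 UMIs was higher at 2 weeks (*Plau*) and 2 were lower (*Procr* and *Serpine2*), where 12.9% and 14.4% of all genes tested were. At 12 weeks 2 of 7 were higher (*Thbd* and *Plat*) and 1 was lower (*Plaur*), against 21.9% and 17.2%. In FBs, 3 of 7 were higher (*Plat*, *Plaur* and *Serpine2*) and 1 lower (*Tfpi*) at 2 weeks, against 22.2% and 23.5%, and 2 were higher (*F3* and *Plat*) and 1 lower (*Procr*) at 12 weeks, against 16.2% and 15.8%. In mural cells, 1 of 6 was higher (*Procr*) and 0 lower at 2 weeks, against 17.6% and 22.8%, and 0 were higher and 2 lower (*Thbd* and *Procr*) at 12 weeks, against 19.7% and 32.5%. In blood cells, 4 of 7 were higher (*Thbd*, *Plat*, *Plau* and *Plaur*) and 2 lower (*Tfpi* and *Serpine2*) at 2 weeks, against 21.4% and 25.3%, and 2 were higher (*Thbd* and *Plaur*) and 3 lower (*Tfpi*, *Plat* and *Plau*) at 12 weeks, against 26.6% and 21.6%. The median ratio of the members at 2 and 12 weeks was 1.05 and 1.23 in ECs, beside 1.00 and 1.06 over all genes tested, and 1.35 and 1.18 in FBs, beside 1.00 and 1.01. It was 1.31 and 0.772 in mural cells, beside 0.998 and 0.940, and 1.57 and 0.817 in blood cells, beside 0.971 and 1.05. Of the members past 1.5-fold in ECs and FBs, *Thbd*, *Plat*, *Plaur* and *Serpine2* in ECs and *F3*, *Plat* and *Serpine2* in FBs also had an interval that left 1. In mural cells *Procr* at 12 weeks had such an interval, and in blood cells *Plau*, *Plaur* and *Tfpi* at 2 weeks and *Plaur* at 12 weeks. The other members past 1.5-fold in mural and blood cells had intervals that included 1.

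Within ECs, levels were compared between clusters, except for *F3* and *Plau*, whose 6 and 27 UMIs over all ECs were too few. The 3261 ECs were clustered with the members and the other haemostasis genes left out, which gave 14 clusters, of which 8 could be named from marker genes. Capillary-like clusters (978 cells), venous-like cells (358 cells, with *Selp*, *Lrg1* and *Nr2f2* among their leading genes), arterial-like clusters (263 cells, with *Gja4* or *Gja5*), endocardial-like cells (67 cells, with *Npr3*), proliferative-like cells (56 cells) and lymphatic-like cells (49 cells, with *Ccl21a*, *Lyve1* and *Prox1*) were separated. Some names rest on mixed markers. Venous-like cells had 4 of 7 venous but also 5 of 6 capillary markers detected, and endocardial-like cells had 4 of 6 endocardial and 4 of 7 venous markers. Another 6 clusters stayed unnamed, among them a cluster led by *Cxcl12* and *Hey1*, which held capillary and arterial markers, a cluster led by *Gkn3*, *Cytl1* and *Eln* with 7 of 8 arterial markers, and 3 clusters led by cardiomyocyte, blood or fibroblast genes. The last unnamed cluster, of 535 cells, was led by the hemoglobin genes *Hbb-bt* and *Hbb-bs* and had 6 of 6 capillary markers detected. It is not part of the capillary-like ECs used for comparison below. Levels over the clusters are sums of the 3 libraries unless a phase is given.

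**Figure D4:**
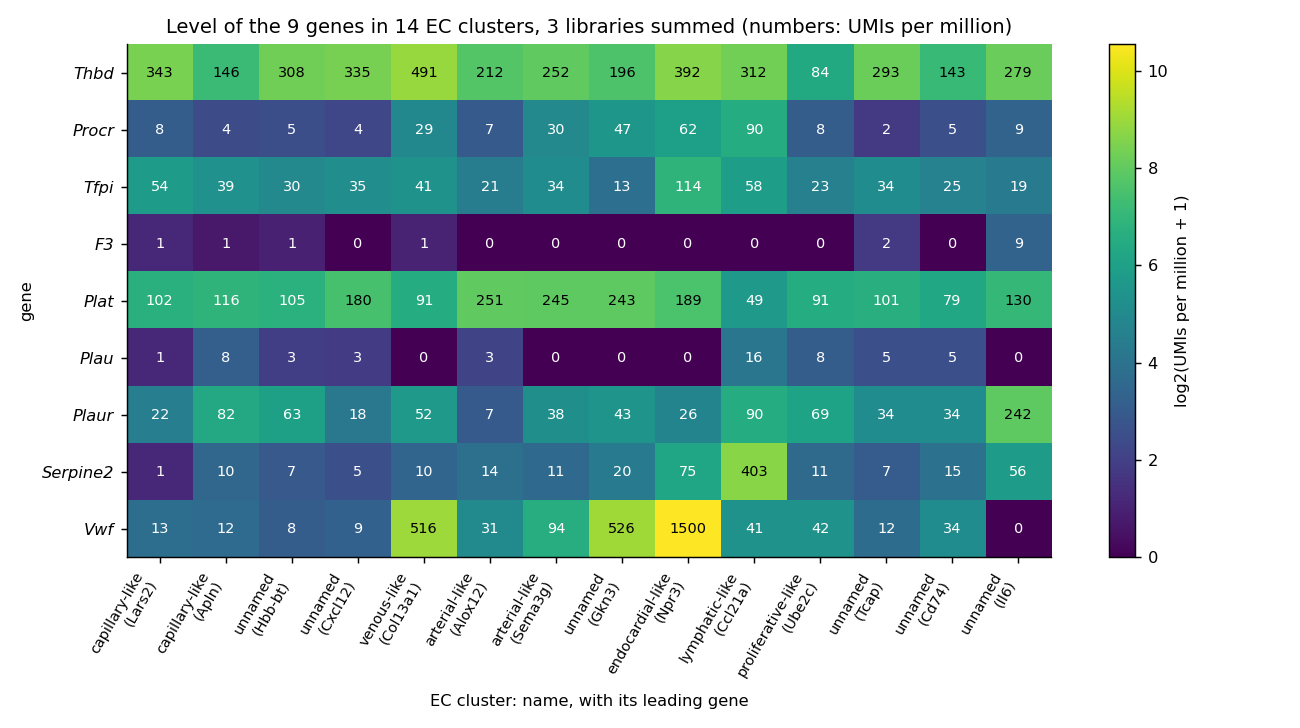
Level of the 9 genes in the 14 EC clusters (columns, each with its name and first leading gene) over the 3 libraries. Color is log2(CPM + 1) and the printed numbers are CPM. Vwf reached 1500 in endocardial-like cells, Serpine2 403 in lymphatic-like cells, and Plat 243 to 251 in the arterial-like and Gkn3 clusters.

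Set against the pooled capillary-like ECs, *Vwf* had the steepest gradient of the 9. It was 1500 CPM (1345 to 1668) in endocardial-like ECs, 526 CPM (447 to 615) in the *Gkn3* cluster, 516 CPM (473 to 563) in venous-like ECs, 61.5 CPM (42.6 to 86.0) in arterial-like ECs and 12.3 CPM (8.25 to 17.7) in capillary-like ECs. The *Gkn3* cluster and venous-like ECs were not separated, and all other steps in this order were larger than counting error. Endocardial-like ECs were 122 times (83.2 to 185) and venous-like ECs 41.9 times (28.8 to 63.2) above capillary-like ECs. Endocardial-like, venous-like and *Gkn3* ECs were 2.05%, 10.98% and 3.62% of all ECs by cell number, and held 30.4%, 46.0% and 14.1% of all *Vwf* UMIs of ECs.

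*Vwf* differed between libraries within some EC clusters, being above healthy at 2 weeks in 5 of 8 clusters and below it in 3, with 2 intervals above 1 and 1 below it. The last was the *Apln* cluster, with 16.5 CPM in the healthy library and 3.36 CPM at 2 weeks, from 15 and 2 UMIs, 13 of the 15 in 3 cells, a ratio of 0.204 (0.0226 to 0.878). In venous-like ECs *Vwf* was 437 CPM (374 to 507) in the healthy library, 560 CPM (499 to 626) at 2 weeks and 654 CPM (461 to 902) at 12 weeks, with ratios to healthy of 1.28 (1.06 to 1.55) and 1.497 (1.02 to 2.14). In the *Gkn3* cluster it was 237 CPM (171 to 320) in 74 healthy cells and 1292 CPM (1042 to 1585) in 25 cells at 2 weeks, a ratio of 5.45 (3.74 to 8.05). The 3 highest of these 25 cells held 24 of the 92 UMIs. Endocardial-like cells numbered 54, 11 and 2 in the 3 libraries, so that the cluster with the highest *Vwf* level was 54 of 1152 ECs in the healthy library and 11 of 1798 at 2 weeks. With the clusters weighted as in the healthy library, the EC ratio to healthy was 2.44 at 2 weeks and 1.74 at 12 weeks, in place of 1.04 and 1.11, and the endocardial-like part of these values rests on the 11 and 2 cells.

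*Thbd*, in contrast, was present in every EC cluster. It ranged from 83.8 CPM (52.5 to 127) in proliferative-like ECs to 491 CPM (449 to 537) in venous-like ECs, where it was 2.33 times (2.05 to 2.65) the level of capillary-like ECs. The capillary-like ECs were themselves divided, with 343 CPM in the cluster that had *Aplnr* and *Car4* among its leading genes and 146 CPM in the cluster led by *Apln*, *Pgf* and *Mest*. The unnamed *Hbb-bt* cluster, which held the capillary markers too, had 308 CPM. The higher *Thbd* level after TAC was seen across clusters: it was above healthy at 2 weeks in 8 of the 8 clusters that had at least 20 cells in both libraries, with 3 intervals that left 1, and at 12 weeks in 5 of 5, with 2 such intervals. In venous-like ECs it was 367, 536 and 937 CPM and in the *Apln* cluster 109, 183 and 305 CPM, with 12-week ratios of 2.55 (1.83 to 3.52) and 2.80 (1.68 to 4.48). These clusters share 1 library per phase and are not replicates. With the clusters weighted as in the healthy library the EC ratios were 1.32 at 2 weeks and 1.95 at 12 weeks.

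**Figure D5:**
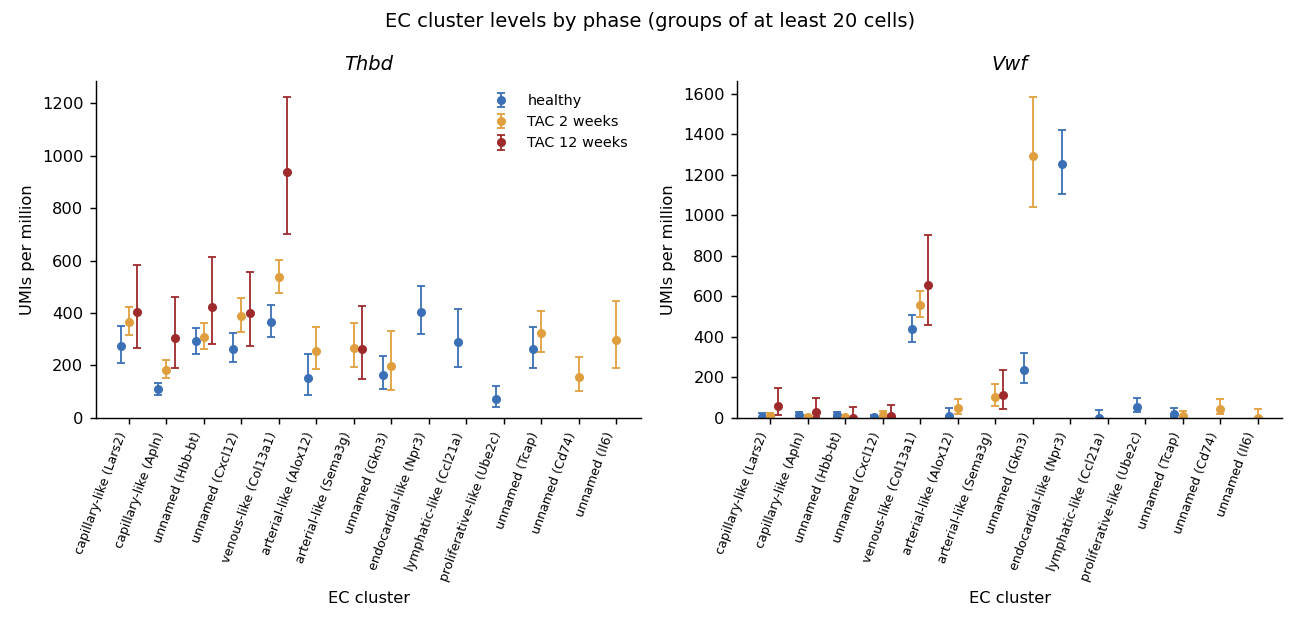
Thbd (left) and Vwf (right) levels in EC clusters by phase (CPM, linear axis from 0, exact Poisson 95% intervals), for groups of at least 20 cells. Thbd stood above healthy at 2 weeks in all 8 clusters with both libraries plotted, and Vwf was at most 115 outside the venous-like, endocardial-like and Gkn3 clusters.

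*Plat* followed the arterial side. It was 248 CPM (208 to 293) in arterial-like ECs, 2.23 times (1.80 to 2.75) the 111 CPM of capillary-like ECs, and 243 CPM in the *Gkn3* cluster, 189 CPM in endocardial-like ECs and 180 CPM in the *Cxcl12* cluster. Venous-like ECs, at 91.1 CPM, were not separated from capillary-like ECs (ratio 0.818, 0.637 to 1.04), and lymphatic-like ECs held 49.3 CPM (18.1 to 107). At 12 weeks *Plat* was above healthy in 5 of 5 clusters, by 1.26 to 2.02 times, with 1 interval that left 1. An arterial-like cluster with *Sema3g* and *Gja5*, with 5 healthy cells, 89 at 2 weeks and 36 at 12 weeks, held 278 CPM at 12 weeks. Weighting the clusters as in the healthy library gave a 12-week EC ratio of 1.56.

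*Procr*, *Tfpi*, *Serpine2* and *Plaur* were each highest in small EC clusters. *Procr* was 90.4 CPM (45.1 to 162) in lymphatic-like, 61.6 CPM (33.7 to 103) in endocardial-like and 29.0 CPM (19.4 to 41.7) in venous-like ECs, against 5.52 CPM in capillary-like ECs, and the ratios to capillary-like ECs were 16.4 (6.64 to 39.6), 11.1 (4.86 to 25.8) and 5.25 (2.65 to 11.01). *Tfpi* was 114 CPM (74.7 to 168) in endocardial-like ECs, 2.59 times (1.62 to 4.01) the capillary-like level. *Serpine2* was 403 CPM (298 to 532) in lymphatic-like ECs, 55.7 times (31.5 to 103) the 7.22 CPM of capillary-like ECs and close to the 390 CPM of healthy FBs. Lymphatic-like ECs were 1.503% of ECs and held 37.1% of their *Serpine2* UMIs, and they numbered 31, 11 and 7 cells in the 3 libraries. *Plaur* was highest, at 242 CPM (158 to 354), in an unnamed cluster of 34 cells led by *Il6*, *Gsn* and *Col1a2*, with *Plaur* itself among its 10 leading genes, of which 30 came from the 2-week library, and 82.4 CPM (68.8 to 97.8) in the *Apln* cluster. Its EC level was below healthy at 2 weeks in 5 of 8 clusters, with 2 intervals that left 1, and at 12 weeks in 3 of 5, where it was above healthy in the other 2 and 0 intervals left 1. The 12 dissociation-stress genes summed to 24888, 21406 and 18982 CPM in ECs, in the same order as *Plaur*, and their part in its EC level was not tested.

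Of 47 other genes of haemostasis, 22 had at least 20 UMIs in a class of a library, and 11 were at 0 UMIs in every class and library. Among the latter were *Fga*, *Fgb*, *Fgg*, *Plg* and *Proc*. Of the 15 coagulation factors *F10* and *F13a1* passed. *F13a1*, the subunit of factor XIII that crosslinks fibrin, was 719, 234 and 226 CPM in blood cells, with ratios to healthy of 0.325 (0.262 to 0.399) and 0.315 (0.251 to 0.391), and it was among the leading genes of the *Lyve1* and *Ccl8* cluster, which had 327, 28 and 23 cells. The part of these cell numbers in the *F13a1* values was not tested. *F10*, the factor that turns prothrombin into thrombin, was 3.94 CPM in healthy blood cells, from 11 UMIs, and 60.9 and 36.9 CPM after TAC.

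In FBs, the thrombin receptor *F2r* was 155 CPM (144 to 168) in the healthy library, 337 CPM (271 to 414) at 2 weeks and 199 CPM (166 to 237) at 12 weeks, so that it was highest at 2 weeks like *Serpine2*, with a ratio to healthy of 2.17 (1.72 to 2.70). Across the lists, 4 of 17 genes with enough UMIs were at least 1.5-fold higher and 5 lower in FBs at 2 weeks, against 22.2% and 23.5% of all genes tested, and 1 of 16 was higher (*Serpinc1*) and 1 lower (*Klf4*) at 12 weeks, against 16.2% and 15.8%. In ECs, 0 of 21 were higher and 5 lower at 2 weeks, against 12.9% and 14.4%, and 4 of 21 were higher (*Pros1*, *Hs3st1*, *F2rl1* and *Anxa2*) and 1 lower (*Selp*) at 12 weeks, against 21.9% and 17.2%. Of these genes named at 12 weeks, *Serpinc1* in FBs (0.543 to 4.08) and *Selp* in ECs (0.167 to 1.06) had ratio intervals that included 1. The intervals of the others left 1. *Pros1*, which encodes protein S, the cofactor of activated protein C, was 64.2, 81.4 and 105 CPM in ECs. *Klf2* and *Klf4*, transcription factors known to drive *Thbd*, were 4366, 3437 and 3420 CPM and 1513, 1122 and 1233 CPM in ECs, both lower after TAC. At 2 and 12 weeks the *Klf4* ratios to healthy were 0.697 and 0.633 in FBs, 0.730 and 0.547 in mural cells and 0.442 and 0.487 in blood cells. Those of *Klf2* were 0.460 and 0.931, 0.919 and 0.748, and 0.320 and 1.10. In these classes the intervals of the *Thbd* ratios included 1, and the part of either factor in the *Thbd* levels was not tested. Mural cells had 15 genes with enough UMIs at each time, of which 2 were higher and 2 lower at 2 weeks, against 17.6% and 22.8%, and 0 higher and 7 lower at 12 weeks, against 19.7% and 32.5%. Blood cells had 13 at 2 weeks, of which 3 were higher and 6 lower, against 21.4% and 25.3%, and 15 at 12 weeks, of which 6 were higher and 4 lower, against 26.6% and 21.6%.

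Over 15 groups (ECs, FBs, blood cells and both sides of the mural class in the 3 libraries), the genes most like each member were sought among 8043 genes with at least 200 UMIs by Pearson's r of log2(CPM + 1). The groups of 1 library share its depth, so r is a description. *Serpine2* was followed by *Lhfp* and *Gpx8* (r = 0.988 for both), *F3* by *Svep1* (r = 0.981) and *Fmod* (r = 0.955), *Thbd* by *Xaf1* (r = 0.979), and *Vwf* by *Myct1* (r = 0.971) and *Pparg* (r = 0.946). *Plaur* was most like *Sh3bgrl3* (r = 0.949), *Tfpi* like *Rhob* (r = 0.949) and *Plat* like *Rab18* (r = 0.948). *Procr*, with 5730508B09Rik (r = 0.927), and *Plau*, with *Nfkbie* (r = 0.899), had the least close neighbors.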

How the data were processed

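The authors counted UMIs per gene and cell with Cell Ranger 2.0.0 on mm10 (submitters' processing notes) from Chromium 3' v2 libraries and deposited these raw counts without normalization. The gene and barcode lists were read only to name rows and columns. The members and gene lists were chosen with earlier results of these data known. Cells with at least 200 genes were kept. A cell entered a class with at least 3 UMIs and 60% of marker UMIs from 1 list, and 157, 54 and 22 cells lay between 50% and 70%. Libraries shared 5, 1 and 3 barcodes. Libraries were integrated and ECs and FBs re-clustered with Seurat 5.3.0 (R 4.3.3; 2000 features, 30 dimensions, k = 20, resolution 0.8), without 56 member and haemostasis genes, and blood clusters come from the clustering of all cells. A marker counted as detected at 10% of cells and 50% of its highest share in any cluster, limits set after the data were seen. An EC cluster took a list's name with 3 markers detected and at least 2, and most of any list, among its 10 leading genes, or with the highest detected share when no other list was among them. Leading genes had at least 20 UMIs and the largest fold with 10 CPM added. Scrublet (scanpy 1.11.5) called 35, 2 and 5 doublets, which were kept and removed in an alternative. Levels were CPM of summed UMIs with exact Poisson 95% intervals, ratios had conditional binomial intervals and shares were thinned to 1000 UMIs (Python 3.11.15, numpy 2.4.6, scipy 1.17.1, pandas 2.3.3, matplotlib 3.10.9). Intervals and the limit of 3 counts cover counting error only. The interval calculation was tested on simulated data. All 9 members, haemostasis genes with at least 20 UMIs in a class of 1 library, and the closest genes by correlation could be named. The 4 members without a promoter entry and their proteins were named only. Positions come from GENCODE M21 of GRCm38, matched by Ensembl identifier. Some genes of the lists are not reported here by name. With 1 library per phase no p-values were computed.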

Additional observations from a re-analysis of the deposited data

Results flagged for a closer look

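*Plaur* and *Serpine2* differed between the library of a TAC phase and the healthy library in opposite directions in a pair of classes, and this difference was not tested, since each phase is 1 library. The *Plaur* ratio to healthy was 0.742 in ECs and 4.05 in blood cells at 2 weeks, and 0.430 in ECs and 1.98 in blood cells at 12 weeks. The *Serpine2* ratio at 2 weeks was 0.312 in ECs and 1.76 in FBs. Each of these intervals lay on 1 side of 1, and they cover counting error only.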

How the results depend on the processing

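Of 148 alternative values of the phase ratios, 143 stayed within the interval of the reported ratio and 5 moved out of it, and no ratio whose interval left 1 turned direction. The 5 came from weighting clusters as in the healthy library: *Vwf* in ECs was then 2.44 at 2 weeks and 1.74 at 12 weeks, *Plaur* in blood cells 2.17 and 1.32, and *Plau* in blood cells 1.79 at 12 weeks, on the other side of 1 from the reported 0.634, whose interval included 1. The weighting of blood and FB clusters and the removal of EC clusters led by other lineages were chosen after seeing the data. Of 63 alternative class levels 1 moved, *F3* in healthy FBs, to 44.8 CPM as a mean over cells. Of 39 EC subtype levels 10 moved, 9 of them where the subtype came from the largest marker sum, which placed 262 cells in the endocardial-like group: *Vwf* was then 642 CPM in endocardial-like, 389 in venous-like and 41.4 in arterial-like ECs, *Thbd* 342 in venous-like and 270 in capillary-like ECs, *Tfpi* 57.5 in endocardial-like, *Plat* 178 in arterial-like, *Serpine2* 265 in lymphatic-like and *Plaur* 43.5 in capillary-like ECs. At resolution 0.5 *Vwf* in arterial-like ECs was 318 CPM. All 9 shares of cells fell outside their interval when thinned to 1000 UMIs, as fewer UMIs were read. No paired analysis was possible because each group is 1 library, and no library could be left out. Mural values at 12 weeks rest on 39 cells, FB values at 2 weeks on 99 cells, and differences there were often not detectable at this depth.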

Other observations

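Hemoglobin and *Alas2* transcripts summed to 93.2, 307 and 6946 CPM in ECs of the healthy, 2-week and 12-week libraries, and to 2373 CPM in healthy mural cells, where 3577 of 3578 UMIs lay in the cells with more smooth muscle markers. They were at 0 UMIs in FBs, mural cells and blood cells of the 2-week library. Cardiomyocyte genes summed to 747, 554 and 187 CPM in ECs, to 129, 159 and 413 CPM in mural cells, and to 49.8, 44.4 and 22.3 CPM in FBs. *Hs3st1*, whose enzyme makes the antithrombin-binding form of heparan sulfate, was 2.87 CPM in healthy blood cells, 0 at 2 weeks and 42.1 CPM at 12 weeks. The cluster led by *Cd79a* had 45 of 963, 4 of 193 and 73 of 182 blood cells in the same libraries. Its part in the *Hs3st1* values was not tested.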
